A study of Mus musculus with 10 samples.

Results

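The immunity-related GTPase genes Irgm1, Irgm2, Igtp, Iigp1, Ifi47 and Tgtp1 were examined in chromatin loop lists of mouse macrophages. A loop here is a pair of 10 kb bins of 1 chromosome that was called in a contact map, with the number of sequenced contacts between both bins. Loops were taken when an anchor bin overlapped the 100 kb either side of the transcription start site (TSS) of a gene in GENCODE M21, on the GRCm38 build. The 6 genes are among 21755 protein-coding genes of the autosomes and X, and 141 of the 153264 bin pairs called in any list lay near them. In the order M0[CTR], M2[IL-4], M2p[pIL-4], IFNG and pIL-4 + IFNG, which holds throughout, the lists held 63, 50, 61, 52 and 73 loops near the genes. The genes lie in 3 loci, so they are not 6 independent observations. Irgm1 (chr11:48861968-48871683, minus strand), Tgtp1 (chr11:48985327-48994172, minus) and Ifi47 (chr11:49076587-49096974, plus) form a cluster with overlapping windows. Igtp (chr11:58199556-58207591, plus) and Irgm2 (chr11:58199618-58222782, plus) have annotated starts in the same bin and therefore the same loops. Iigp1 (chr18:60376027-60392634, plus) stands alone.

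The cells were bone marrow-derived macrophages (BMDM) of wild type female C57BL/6 mice aged 2 to 3 months, differentiated in M-CSF at 20 ng/ml and treated on day 6. M0[CTR] cells received no polarizing cytokine. IL-4 was given at 20 ng/ml for 24 h to M2[IL-4] cells, and M2p[pIL-4] cells had the same IL-4 exposure, a wash and 24 h of rest. IFNG at 20 ng/ml was given for 3 h to unprimed cells (IFNG) or after that priming and rest (pIL-4 + IFNG). Each group had 2 replicates, but only 1 loop list per group was analysed, so differences have no replicate check and carry no p-value. Intervals are 95% and cover counting error only. Hi-C measures no RNA, so the cell type could not be checked against markers and the expression of the GTPase genes is not known from these data.

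Immunity-related GTPases are interferon-induced proteins that macrophages use against microbes living inside vacuoles. The GMS subgroup, with Irgm1, Irgm2 and Igtp (also called Irgm3), sits on host membranes and keeps the others in check. The GKS subgroup, with Iigp1 (Irga6), Tgtp1 (Irgb6) and Ifi47 (Irgd), loads onto the vacuoles of pathogens such as Toxoplasma and helps to break them. Their transcription is classically driven by IFNG, through GAS elements and, by way of interferon regulatory factors, ISRE elements in their promoters.

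The promoter sequences are shown because IFNG is the stimulus compared here and its known response elements can be read in them. They come from RefSeq on GRCm38.p6, in which the starts of Irgm1, Tgtp1 and Irgm2 differ from the GENCODE starts used for counting. Capitals mark ISRE-like matches (GAAA, any 2 bases and GAAA again, on either strand) and GAS-like matches (TTC, any 3 bases and GAA, which reads the same on both strands), and each run of 90 bases is written 5′ to 3′ on the strand of the gene. The runs end 1 base before the RefSeq start.
Irgm1 promoter (chr11:48871421-48871510, minus): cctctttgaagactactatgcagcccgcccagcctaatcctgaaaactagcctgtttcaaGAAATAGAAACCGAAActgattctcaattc
Tgtp1 promoter (chr11:48992247-48992336, minus): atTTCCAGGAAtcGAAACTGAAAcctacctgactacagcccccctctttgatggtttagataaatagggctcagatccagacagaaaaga
Igtp promoter (chr11:58199466-58199555, plus): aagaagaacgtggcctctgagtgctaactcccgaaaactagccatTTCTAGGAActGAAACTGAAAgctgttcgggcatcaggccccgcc
Irgm2 promoter (chr11:58214887-58214976, plus): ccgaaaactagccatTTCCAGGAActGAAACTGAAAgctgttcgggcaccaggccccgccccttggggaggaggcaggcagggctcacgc

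In Tgtp1, Igtp and Irgm2 a GAS-like match was followed 2 bases later by the same ISRE-like decamer, GAAACTGAAA. Irgm1 had 2 overlapping ISRE-like matches at -30 to -15 and no GAS-like match. Of 32851 RefSeq promoters of 300 bases (250 before the start to 50 after), 3.44% held an ISRE-like match, 8.30% a GAS-like match and 0.454% both. A match is a description of letters and not a measured binding site.

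Across the series the lists held 53424, 58260, 67728, 55012 and 67000 loops, each with a median of 32 contacts, and the ratios of loop number below are therefore per list length, with 1 loop added to each number. A gene was counted as higher or lower when this ratio reached 1.5-fold. The counting intervals beside these ratios were taken from the numbers without the added loop. Where loops are few, they are therefore not set around the printed ratio. Between 23.9% and 26.9% of all protein-coding genes had no loop at all in a list. A bin pair missing from a list was not called there, and its contact number is unknown rather than 0.

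Among the 3 genes of the cluster, Irgm1 was the richest in loops. It had 50, 44, 49, 41 and 49 loops, more than 88.3% to 93.1% of all genes, and the 5 counting intervals overlapped. Tgtp1, whose product is a GKS effector, had 24, 20, 18, 18 and 22 loops, and its intervals also overlapped. Ifi47, the third gene of the cluster and another GKS member, had 41 (29.4 to 55.6), 32 (21.9 to 45.2), 38 (26.9 to 52.2), 21 (13 to 32.1) and 27 (17.8 to 39.3) loops. The IFNG list held the fewest loops near Ifi47 and the pIL-4 + IFNG list the next fewest.

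The other loci had few loops in each list. Igtp and Irgm2, of the GMS subgroup, had 5, 4, 7, 7 and 11 loops, the most in the primed and IFNG-treated cells, with overlapping intervals (1.62 to 11.7 in M0[CTR], 5.49 to 19.7 in pIL-4 + IFNG). Iigp1, a GKS effector, had 2, 0, 2, 1 and 5. None of its loops had an anchor within 50 kb of its start in any list, and the nearest anchor bin lay 56 kb away. The Iigp1 loops therefore stood in its neighbourhood rather than at the gene.

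**Figure D1:**
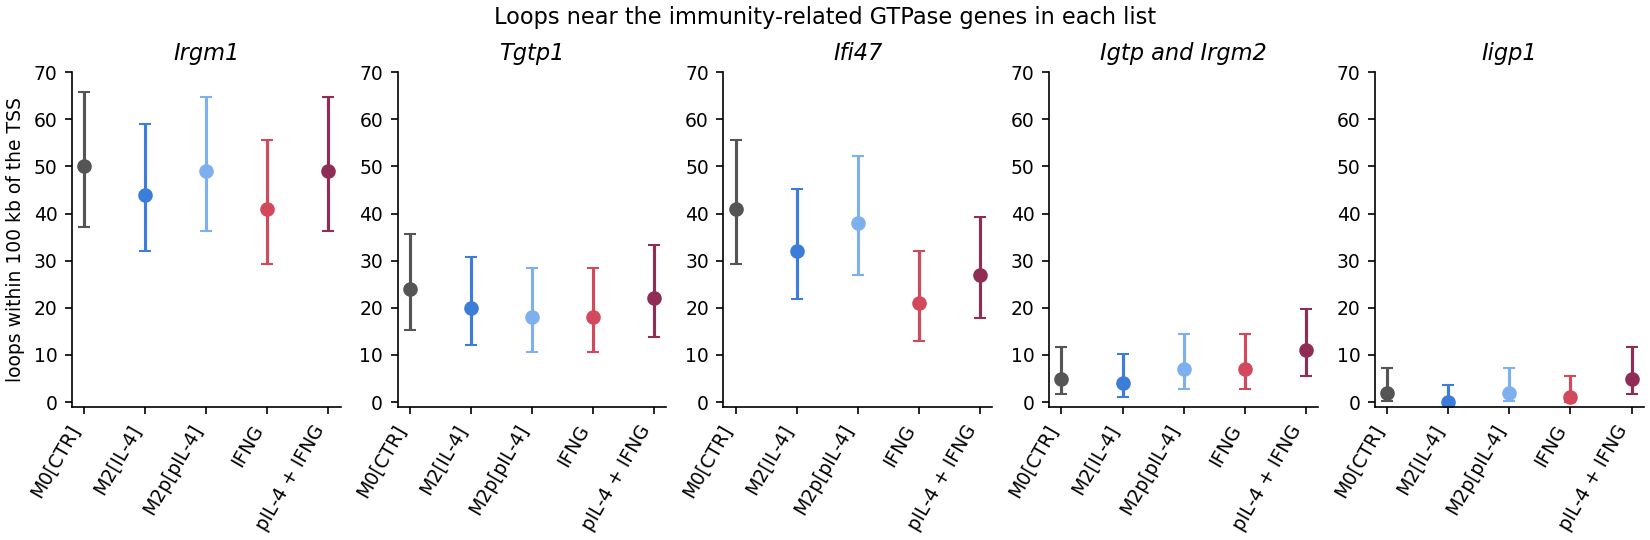
Loops with an anchor bin within 100 kb of the TSS (y axis, number of loops) in each of the 5 lists (x axis), with exact Poisson 95% intervals as bars. Irgm1 stayed between 41 and 50 loops, Ifi47 went from 41 in M0[CTR] to 21 in IFNG, and Igtp with Irgm2, and Iigp1, had at most 11.

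Whether IFNG changed the number of loops near these genes was asked in an unprimed and in a primed comparison, whose lists share no library. In IFNG against M0[CTR], Ifi47 was lower by 0.98 on the log2 scale (-0.98, counting interval -1.84 to -0.22), and only 6.08% of all genes had a lower ratio. The ratio was -0.21 with touching bin pairs merged into patches and -0.04 for the TSS bin alone. A second annotated start of Ifi47 lies in the next bin, chr11:49080001-49090000, which held 9, 7, 6, 4 and 6 loops. The TSS bin value therefore holds only for the start used for counting. Irgm1 (-0.32) and Tgtp1 (-0.44) stayed under 1.5-fold, as did Igtp and Irgm2 (0.37). Iigp1 was counted as lower with 1 loop against 2, numbers too small to give a fold. So 2 of 6 members were counted as lower and 0 as higher, where 11.1% and 12.9% of all genes were.

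The primed comparison set pIL-4 + IFNG over M2p[pIL-4]. Ifi47 again had fewer loops (27 against 38, log2 ratio -0.46, interval -1.25 to 0.27) without reaching 1.5-fold, but with touching bin pairs merged it had 8 patches against 4 and the ratio turned to 0.86. Irgm1 had 49 in both lists (0.02) and Tgtp1 22 against 18 (0.29). Igtp and Irgm2 just passed 1.5-fold (11 against 7, 1.52-fold, log2 ratio 0.60, interval -0.83 to 2.27). Iigp1 was at 2.02-fold (5 loops against 2, log2 ratio 1.02, interval -1.27 to 4.73). These are 3 members higher and 0 lower, against 12.2% and 9.63% of all genes, and 2 of the 3 share every loop. All of these intervals include 0.

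With IL-4 alone, or IL-4 followed by rest, few members were counted. In M2[IL-4] against M0[CTR], 0 were higher and 1 was lower, Iigp1 with 0 loops against 2, beside 11.9% and 10.7% of all genes. In M2p[pIL-4] against M0[CTR], 0 were higher and 1 was lower, Tgtp1 with 18 loops against 24 (log2 ratio -0.74, interval -1.72 to 0.19), beside 12.5% and 8.19%. Priming before IFNG was read from pIL-4 + IFNG against IFNG, in which 1 member was higher (Iigp1, 5 loops against 1, 1.30, interval -1.12 to 7.60) and 0 lower, beside 11.1% and 9.03%. For Irgm1, Tgtp1 and Ifi47 this ratio was -0.03, -0.01 and 0.06.

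Loops were next split by span, a split chosen after the values had been seen. Near Irgm1, Tgtp1 and Ifi47 together there were 56, 46, 52, 44 and 57 loops. Of these, 5, 7, 7, 15 and 15 spanned at most 50 kb, and 42, 31, 38, 22 and 27 spanned at least 150 kb. Both lists from IFNG-treated cells thus held more short loops than each of the lists without IFNG, and fewer long ones. The median span was 215, 210 and 225 kb in the lists without IFNG, and 140 kb and 120 kb with it. Over all loops of the series, short loops made up 14.9% to 16.9% of each list, and 14.9% was the share in IFNG. Long loops made up 54.4% to 57.6%, and 57.6% was the share in IFNG.

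The short loops lay near Irgm1 and Tgtp1, with few near Ifi47. Irgm1 had 4, 7, 6, 13 and 13 short loops, and Tgtp1 had 1, 0, 1, 7 and 6. On the scale of log2 ratios of short loops, Irgm1 reached 1.44 in the unprimed and 1.02 in the primed comparison. Tgtp1 reached 1.96 and 1.82, and 99.5% and 99.2% of all genes had a lower ratio. These values rest on 7 short loops against 1 and 6 against 1, and the ratios by span carry no counting interval. Their ranks among all genes were not matched on loop number. In the unprimed comparison, 2 short loops against 1 at Ifi47 already gave a ratio above that of 89.5% of all genes. No short loop had an anchor in the Tgtp1 TSS bin itself. The 2 windows overlap, and most short loops near Tgtp1 lay on the Irgm1 side of it. Ifi47 had only 1, 0, 1, 2 and 2 short loops, so its loops were mostly long, with 38, 30, 36, 18 and 17 of at least 150 kb. The log2 ratio of long loops at Ifi47 was -1.08 without priming and -1.02 with it, values that only 3.68% and 3.82% of all genes fell below.

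**Figure D2:**
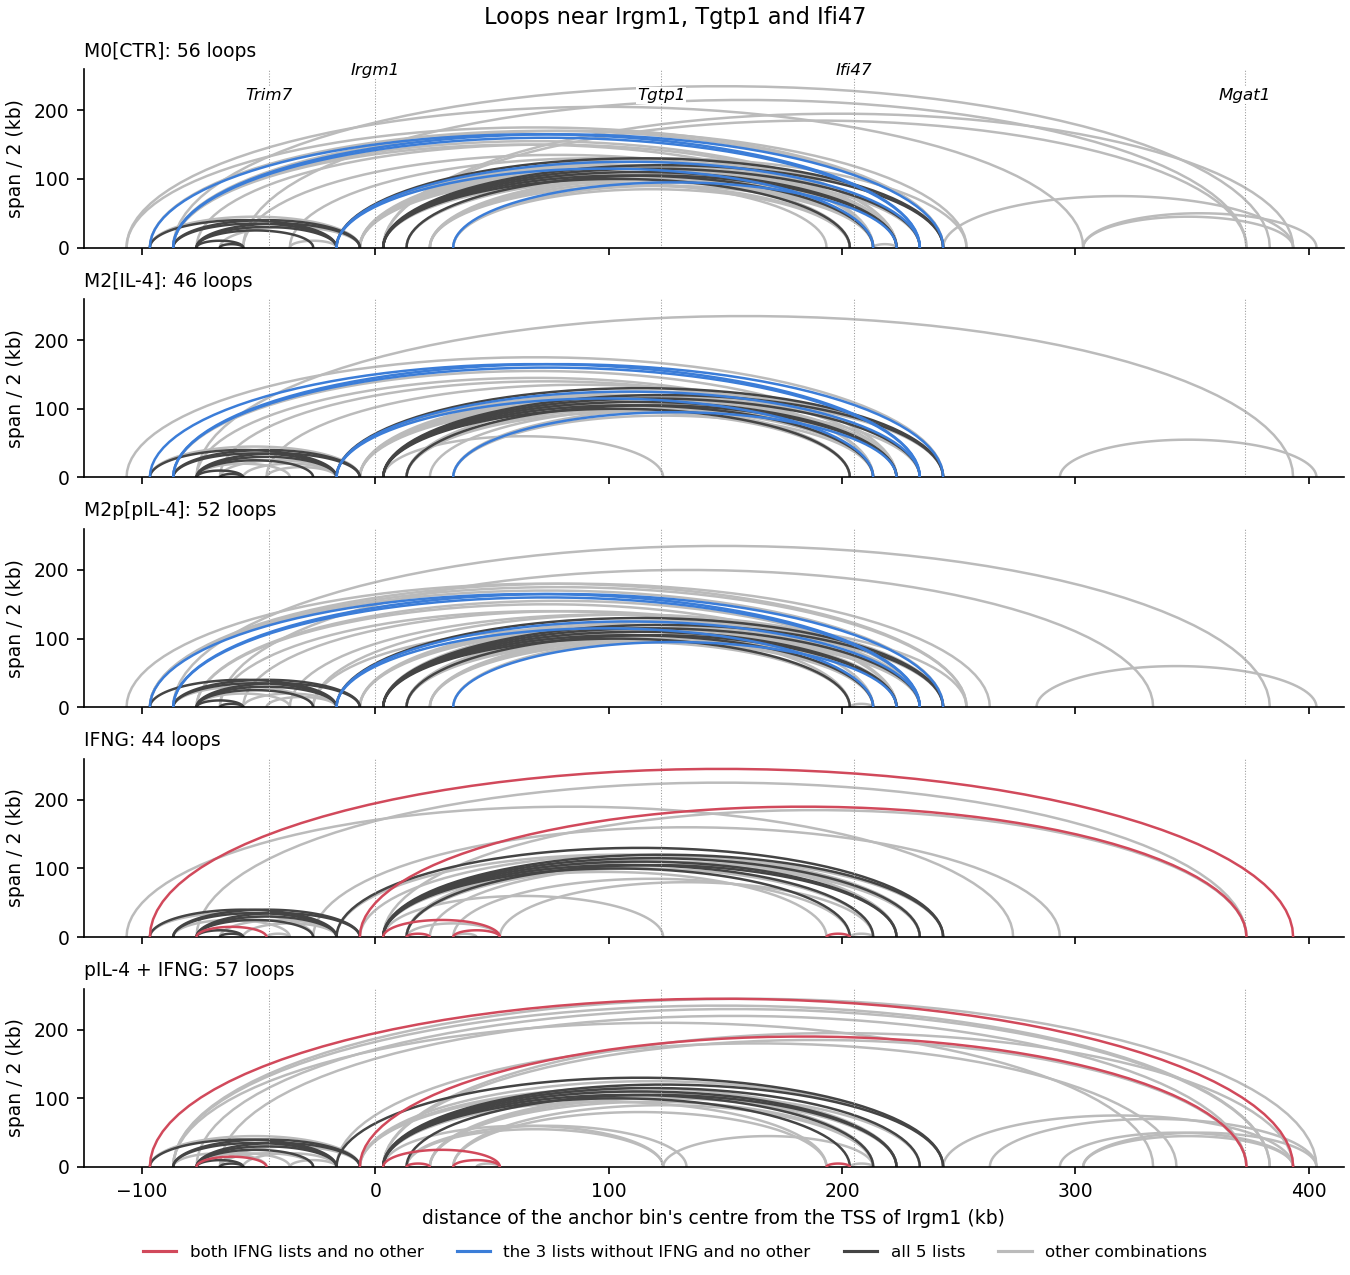
Each arc is 1 loop near Irgm1, Tgtp1 or Ifi47, drawn between the centres of its anchor bins (x axis, distance from the Irgm1 TSS in kb, with a height of span / 2) in each of the 5 lists, with dotted lines at the starts of 5 genes. The 6 bin pairs in the 3 lists without IFNG and no other are all long and end at the Ifi47 side, while 5 of the 7 in both IFNG lists and no other are short.

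The bin pairs themselves were compared next. Of the 113 bin pairs called near the cluster, 15 (13.3%) were in all 5 lists, beside 9.18% over the whole series. In 1 list alone were 48 (42.5%), beside 55.5%, so a larger share here than in the series was in several lists. Another 7 (6.19%) were in both IFNG lists and no other, beside 2.11% of the series, and 5 of these were short. Among short bin pairs this was 5 of 22 (22.7%), beside 2.41% of all short bin pairs. The reverse pattern, all 3 lists without IFNG and no other, held 6 of 113 (5.31%), beside 1.09%, and among long bin pairs it was 6 of 72 (8.33%), beside 0.902%. Neighbouring bin pairs are not independent of each other.

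Of the 5 short pairs seen in both IFNG lists and no other, 3 lay just upstream of Irgm1, which regulates the family from host membranes. The Irgm1 TSS bin (chr11:48870001-48880000) was joined to chr11:48920001-48930000 by 59 contacts (IFNG) and 74 (pIL-4 + IFNG). The bins chr11:48880001-48890000 and chr11:48890001-48900000, both in Gm5431, were joined by 106 and 105 contacts. The bins chr11:48900001-48910000 and chr11:48920001-48930000, both overlapping Gm12185, were joined by 79 and 80. Gm5431 and Gm12185 are predicted genes of the same family. The fourth pair joined the Tgtp2 start bin (chr11:49060001-49070000) to the Ifi47 TSS bin (chr11:49070001-49080000) with 108 and 112 contacts, and Tgtp2 is a near copy of Tgtp1. The fifth lay at Trim7, outside the family (chr11:48790001-48800000 to chr11:48820001-48830000, 62 and 59). These were not strong calls. Over the median of their list for bin pairs equally far apart, the pair at the Irgm1 TSS bin had 1 and 1.32 times the contacts, and the other 4 lay below it, between 0.72 and 0.89 times.

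Taking all loops inside chr11:48870001-48930000, from the Irgm1 start upstream, the lists held 0, 0, 0, 5 and 4, and the loops of both IFNG lists held 379 and 345 contacts in all. The bounds of this stretch and of the next ones were chosen after the values had been seen. To the other side of Irgm1, within chr11:48770001-48870000, loop number was 11, 13, 12, 14 and 16. Of the 12 short bin pairs called in 1 or both IFNG lists and no other, 6 lay in the first stretch, 5 on the other side of Irgm1 and 1 at Ifi47.

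Most of the long loops tied this end of the cluster to Ifi47. In pIL-4 + IFNG, more of them than in any other list ended farther right, in bins with Zfp62, Mgat1 or Olfr1393. Between the Irgm1 side (chr11:48850001-48910000) and the Ifi47 side (chr11:49060001-49120000) the lists held 24, 22, 21, 15 and 16 loops with 838, 786, 769, 456 and 488 contacts. These contact totals sum only the pairs called in each list. At pairs called in both lists, IFNG had 411 contacts against 496 in M0[CTR]. At such pairs, pIL-4 + IFNG had 383 against 517 in M2p[pIL-4]. The stretch farther left, chr11:48760001-48850000, holds Rack1, Trim41 and Trim7. Between it and the Ifi47 side (chr11:49060001-49140000) the lists held 11, 8, 14, 0 and 0 loops. The loops of that last set had 16 to 37 contacts each, with 257, 190 and 313 contacts in all. No loop within these bounds was in either list of IFNG-treated cells, but the 0 depends on the right edge. With that edge at 49180000, which takes in the rest of the Ifi47 window, the lists held 12, 8, 14, 2 and 0, and the 2 loops of IFNG had 14 and 19 contacts.

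**Figure D3:**
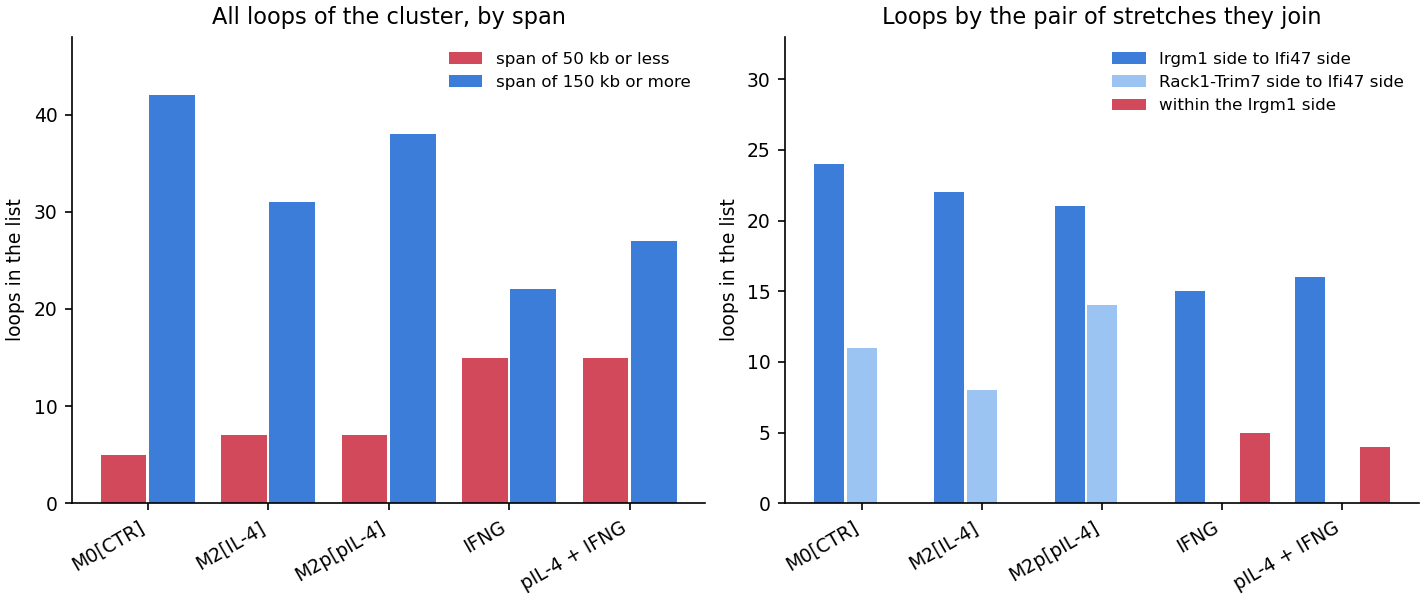
Number of loops (y axis) in each list (x axis): on the left, short and long loops of the Irgm1, Tgtp1 and Ifi47 cluster, and on the right, loops by the stretches they join. There were 5, 7 and 7 short loops in the lists without IFNG and 15 in both lists with it, and 11, 8 and 14 loops from the Rack1 and Trim7 side to Ifi47 in the former and 0 in the latter within the bounds drawn, with 2 in IFNG when the right edge is moved out to the end of the Ifi47 window.

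The 3 loops strongest in IFNG or pIL-4 + IFNG were called in every list. As they were picked by that strength, a call with IFNG was given in advance. Strength was the number of contacts over the median of its list for bin pairs equally far apart. The Irgm1 TSS bin was joined to chr11:49080001-49090000, the bin of the second annotated start of Ifi47, by 67, 81, 58, 62 and 76 contacts. These are 2.48, 2.89, 2.15, 2.21 and 2.81 times that median. To the next bin, chr11:49090001-49100000, at the 3′ end of Ifi47, it was joined by 68, 57, 76, 47 and 48 contacts, or 2.52, 2.11, 2.81, 1.68 and 1.85 times. The first of these loops did not differ in order between the lists with and without IFNG, and the second was lowest in both IFNG lists. The Irgm1 and Ifi47 TSS bins were joined by 40, 31, 52, 41 and 35 contacts. The third strong loop, at Trim7 (chr11:48780001-48790000 to chr11:48850001-48860000), had 87, 84, 102, 96 and 88. The Irgm1 TSS bin was also joined to chr11:49100001-49110000, by 49, 55, 65, 33 and 37 contacts. That is 1.88, 2.12, 2.5, 1.22 and 1.42 times the median. This loop was thus stronger than the Trim7 one in each list without IFNG and weaker in both with it.

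Tgtp1, which lies between the ends, took little part in these loops. A loop from the Irgm1 TSS bin to the Tgtp1 TSS bin (chr11:48990001-49000000) was called with 35, 35 and 40 contacts (M2[IL-4], IFNG and pIL-4 + IFNG), and was not called in the other lists. Its strength was 0.95, 0.92 and 1.08, near the median for the span. In pIL-4 + IFNG the Tgtp1 TSS bin was also joined to chr11:49080001-49090000 by 36 contacts. The Tgtp1 TSS bin held 0, 1, 0, 1 and 3 anchors in all, while that of Irgm1 held 8, 6, 6, 9 and 10.

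The bins around Tgtp1 hold duplicated sequence. Windows of 100 bases were checked for a copy elsewhere in chr11:48760001-49280000, on either strand. Of the 26 bins of chr11:48860001-49120000, 13 had at least 10% of their windows copied (14.0% to 86.6%). These bins, which lie between chr11:48930001 and 49070000 with the copies Tgtp1 and Tgtp2 and 9930111J21Rik1 and 9930111J21Rik2, held 7 anchors over all 5 lists. The other 13 bins held 274, and only 2 of the duplicated bins held any. How reads with several matches were treated is not given in the sources used here, so the part of the duplication in the low number of loops was not tested, and the Tgtp1 and Tgtp2 values are uncertain. The Tgtp1 TSS bin itself had 5.61%, and the bins of chr11:48880001-48930000, upstream of Irgm1, had 3.68% to 8.36%. Copies in the rest of the genome were not searched for.

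Contacts were then compared at bin pairs that both lists had called, since these do not depend on a pair crossing the calling threshold in only 1 list. In IFNG against M0[CTR], the 13 shared pairs near Ifi47 held 411 contacts against 496. Scaled by all 25079 bin pairs that both lists share, the log2 ratio was -0.31 (interval -0.51 to -0.12), and 0.154% of the 8462 genes with 5 or more shared pairs had a lower one. Tgtp1 was at -0.25 (-0.48 to -0.02, 9 pairs, 296 against 341 contacts) and Irgm1 at -0.10 (-0.22 to 0.01, 22 pairs, 1153 against 1202). Over the 8462 genes, the range from the 5th to the 95th percentile was -0.13 to 0.13. Here and in the primed comparison, genes were not matched for contacts or span. The ranks are therefore not among genes of equal counting error.

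The primed cells gave close values from separate libraries. In the primed comparison, Ifi47 was again at -0.31 (-0.48 to -0.15, 13 pairs, 530 against 668 contacts), and 0.0718% of 9747 genes had a lower ratio. Tgtp1 was at -0.21 (-0.40 to -0.02) and Irgm1 at -0.17 (-0.28 to -0.06). These ratios are not separate observations. All 9 shared pairs near Tgtp1 were also near Ifi47 in both settings, and of the 13 near Ifi47, 13 without priming and 12 with it were also near Irgm1. Contacts at the pairs near Ifi47 were thus lower with IFNG in both settings by more than counting error, with no replicate to give the spread between cultures.

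Between lists alike in IFNG treatment the contact ratios were close to 0. In M2[IL-4] against M0[CTR], the ratios were 0.01 for Ifi47 (24 pairs), 0.04 for Tgtp1 and -0.01 for Irgm1, and in M2p[pIL-4] against M0[CTR] they were 0.03, 0.07 and 0.03. In pIL-4 + IFNG against IFNG they were -0.02, 0.04 and -0.02. All of these intervals include 0, and the widest of the Ifi47 intervals ran from -0.19 to 0.14.

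Pair by pair, the same contacts can be read in the block between the Irgm1 side and the Ifi47 side, whose bounds were chosen after the values had been seen. Its 13 shared pairs of the unprimed comparison are the 13 near Ifi47, and 11 of them were lower in IFNG than in M0[CTR] after scaling. In the primed comparison, 11 of 12 were lower, at -0.41 (-0.61 to -0.22). For M2[IL-4] and M2p[pIL-4] against M0[CTR], 7 of 19 and 9 of 17 were lower, at 0.01 and 0.04. The pair that was not lower in the primed comparison was the strong loop from the Irgm1 start to chr11:49080001-49090000, with 76 contacts in pIL-4 + IFNG against 58 in M2p[pIL-4].

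**Figure D4:**
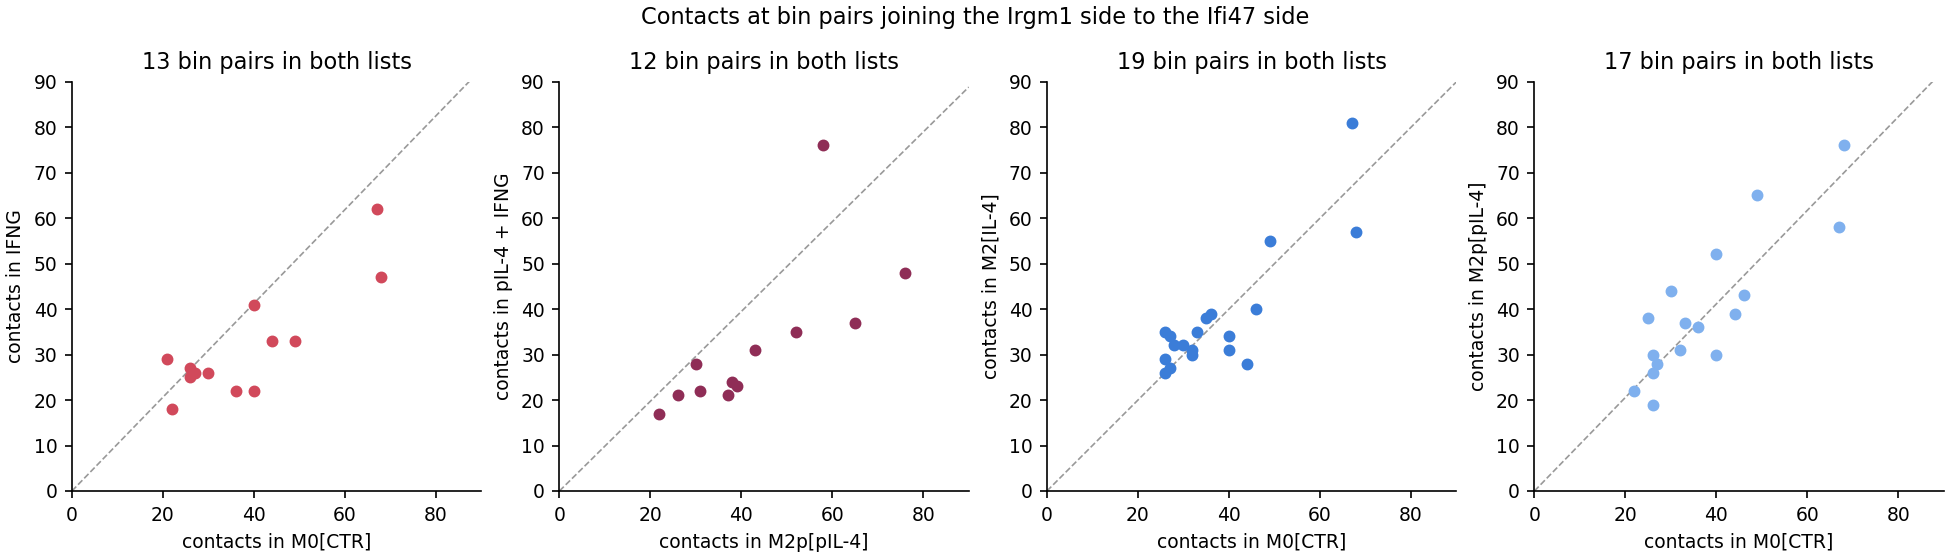
Each point is a bin pair joining the Irgm1 side to the Ifi47 side that both lists had called, with its contacts in 1 list (y axis) against the other (x axis), and the dashed line is the ratio over all shared bin pairs of the series. With IFNG, 11 of 13 and 11 of 12 points lie under the line, while the IL-4 comparisons have 7 of 19 and 9 of 17 under it.

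At Igtp and Irgm2, neighbouring genes that both encode GMS regulators, the lists differed in loops over short distances. The bin of both annotated starts (chr11:58190001-58200000) was joined to chr11:58210001-58220000, which holds the RefSeq start of Irgm2 shown above, by 89 contacts (M2p[pIL-4]), 90 (IFNG) and 83 (pIL-4 + IFNG). That pair was not called in M0[CTR] or M2[IL-4]. The same lists, and no other, joined chr11:58180001-58190000, just upstream of Igtp, to the bin of the RefSeq start of Irgm2 by 78, 72 and 78 contacts. Both pairs were thus called in the lists of IL-4-primed cells and of IFNG-treated cells, and their contacts in the other lists are unknown. The first had strengths of 0.98, 0.96 and 0.92, just below the median for its span. As both annotated starts share a bin, a pairing of Igtp with Irgm2 cannot be read from these calls.

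A loop that reached farther was in the lists without IFNG. It joined chr11:58180001-58190000 to chr11:58220001-58230000, the bin of the Irgm2 3′ end, with 60, 48 and 65 contacts. Reach to that bin was not confined to these lists. From chr11:58170001-58180000 it was joined in M2[IL-4], M2p[pIL-4] and pIL-4 + IFNG, by 41, 39 and 37 contacts. Adjacent bins were joined at Igtp in IFNG (chr11:58180001-58190000 to the bin of the starts, 117 contacts) and within both genes in pIL-4 + IFNG (chr11:58200001-58210000 to chr11:58210001-58220000, 156). The strongest loop of pIL-4 + IFNG near these genes ended at Cnot8, in the window but outside the family, and had 40 contacts or 1.21 times the median at its span. The pair of 78, 72 and 78 contacts had strengths of 1.08, 0.95 and 1.1, near the median for its span.

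**Figure D5:**
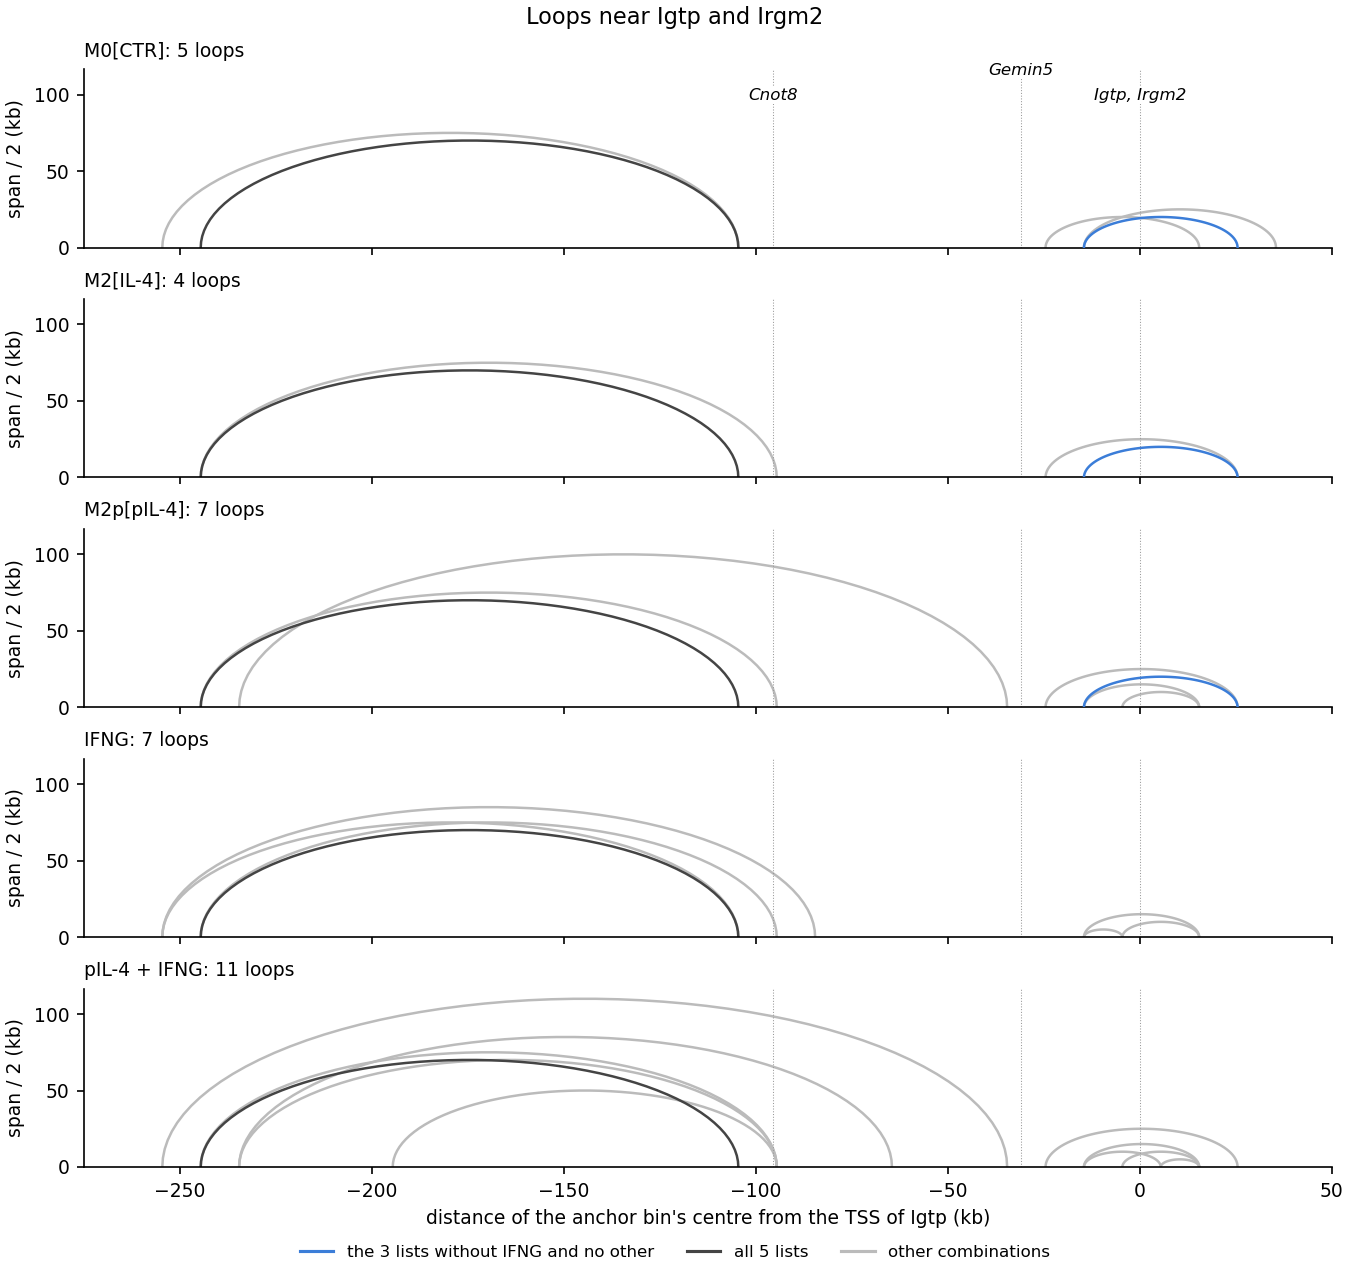
Each arc is 1 loop near Igtp and Irgm2 (x axis, distance from the Igtp TSS in kb, with a height of span / 2 in kb) in each list, with 5, 4, 7, 7 and 11 loops from top to bottom. The small arcs at 0 end about 15 kb to the right of the Igtp start in M2p[pIL-4], IFNG and pIL-4 + IFNG, and a blue arc that ends farther right is in the 3 lists without IFNG. A grey arc to the same bin is in M2[IL-4], M2p[pIL-4] and pIL-4 + IFNG.

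Contacts at shared bin pairs could be compared for Igtp and Irgm2 in 1 setting. In the primed comparison, 5 shared pairs held 267 contacts against 269, a log2 ratio of 0.01 (-0.24 to 0.26). The other comparisons had 2 to 4 shared pairs, with ratios from -0.27 to 0.02 and intervals that include 0. Of the 18 bin pairs near these genes, 11 were in 1 list alone (61.1%, beside 55.5% of the series).

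Iigp1 had 10 bin pairs over the 5 lists, and each was in 1 list alone, so no contact ratio could be had. Of its loops, 9 lay downstream, with anchors at chr18:60450001-60480000 in or next to Smim3, and the 1 loop of the IFNG list lay upstream. The 3 strongest of both IFNG lists were all in pIL-4 + IFNG and had strengths of 0.92, 0.81 and 0.81, below the median for their spans. They ended in bins with Ndst1 (24 contacts), Rbm22 and Myoz3 (30) and Rbm22 (34). An adjacent pair next to Smim3, also in pIL-4 + IFNG, had 102 contacts. No anchor in any list overlapped the Iigp1 gene.

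CTCF, the factor that marks the borders of many loops, has a known core motif, which was searched for in the bins at and around the genes. The core was found in 7.01% of 255946 bins of the genome. In the cluster it was in the bin chr11:48770001-48780000, which held anchors in every list, and in chr11:49180001-49190000 and chr11:49240001-49250000, the second of which holds the Mgat1 start. No bin between these, and so none with an Irgm1, Tgtp1 or Ifi47 start, held it. Only exact matches to a fixed core pattern were sought, and CTCF binding was not measured here. A bin without a match is therefore not shown to lack CTCF. Joining of Irgm1 to the Mgat1 bin was not particular to IFNG. The Irgm1 TSS bin was joined to it in M0[CTR] by 22 contacts and in both IFNG lists by 26 and 23, and the neighbouring bin chr11:48860001-48870000 in both IFNG lists by 20 and 20. At the other loci the core was in the bins chr18:60460001-60470000 and chr18:60470001-60480000, which are anchors of Iigp1 loops, and in 3 bins in the surroundings of Igtp and Irgm2, at Gemin5 and Zfp692, none of them with a start of either gene.

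Other gene families of the response were set beside the members, using the same count of loops within 100 kb. These lists were chosen with results of these data known. Of the guanylate-binding proteins, GTPases that act with the immunity-related GTPases on pathogen vacuoles, 10 of 11 listed genes were matched. In IFNG against M0[CTR], 6 of 10 were at least 1.5-fold higher and 0 lower, with a median log2 ratio of 1.34, where the 6 members had -0.38 and all genes -0.04. In the primed comparison, 9 of 10 were higher and 0 lower, with a median of 2.25, where the members had 0.45 and all genes 0.02. Of all genes, 12.9% were higher without priming and 12.2% with it. Gbp3 had 43 loops in IFNG against 12 in M0[CTR] (1.72), and Gbp5 and Gbp7 had 47 against 14 each (1.64). The lowest ratios, 0.54, were shared by Gbp4, Gbp8, Gbp9 and Gbp10 with 2 loops against 1. The Gbp genes lie in clusters and share windows, so they too are not independent.

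Of 12 other listed immunity-related GTPases, 10 matched, and 2 were higher and 2 lower in IFNG against M0[CTR], with 0 and 1 in the primed comparison (medians -0.08 and 0.02). Of all genes, 12.9% and 11.1% were so without priming, and 12.2% and 9.63% with it. Several of these genes lie in the loci of the members and share their loops, so they are no separate set. Gm12185 had the same loop numbers as Tgtp1, and F830016B08Rik and Gm4841 lie beside Iigp1. The lowest were 9930111J21Rik2 (20 loops against 38, -0.94) and Tgtp2 (21 against 38, -0.87), both between Tgtp1 and Ifi47. On the Irgm1 side of Tgtp1, 9930111J21Rik1 had 22 against 18 (0.23). The highest were F830016B08Rik and Gm4841, each with 1 loop against 0, too few for a fold.

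Genes that carry the IFNG signal, from its receptor onwards, gave 2 of 10 higher and 0 lower without priming, and 1 higher and 2 lower with it (medians 0.07 and 0.05), beside 12.9% and 11.1% of all genes without priming and 12.2% and 9.63% with it. Jak2, a kinase of the IFNG receptor and one of the higher genes, had 28 loops against 17 (0.65). The lowest were Ifngr1, a receptor chain, with 15 against 17 (-0.21) and Irf9, an interferon regulatory factor, with 35 against 39 (-0.19). The ATG8 conjugation machinery, which the immunity-related GTPases need to find their target membranes, gave 1 of 10 higher and 0 lower without priming, and 2 and 0 with it (medians 0.01 and 0.19), which is near the same shares of all genes. Gabarapl2 was highest, with 1 loop against 0, and Gabarapl1 next, with 28 against 21 (0.36). Map1lc3b was lowest, with 6 against 9 (-0.56), followed by Atg3 with 56 against 63 (-0.21).

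Genes elsewhere with the most similar profile over the 5 lists were found by the root mean square difference of log2 loop number per list length, each centred on its own mean, among 9699 genes with 10 or more loops on average. For the cluster these were Bphl (18, 15, 17, 14 and 18 loops, difference 0.0204), Pom121 (33, 28, 32, 26 and 34, 0.0240) and Ablim3 (19, 15, 18, 15 and 20, 0.0308). For Igtp and Irgm2 they were the neighbours Khdc4 (25, 21, 34, 32 and 48, 0.0451), Rxfp4 (26, 22, 34, 33 and 50, 0.0452) and Rit1 (25, 21, 34, 31 and 48, 0.0564). For Iigp1 the nearest, Tcp11l2 (12, 4, 10, 7 and 17), was at 0.246, and Des (14, 6, 17, 10 and 22) and Fbxo11 (13, 4, 14, 12 and 18) were at 0.290 and 0.334. With 5 lists such likeness is a description only.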

How the data were processed

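Hi-C with the enzyme MboI was run on 10 samples, 2 per group, assigned from sample titles. Per the labels, reads went through Bowtie2 and HiC-Pro on mm10, with FastQC, Juicer and HOMER also named. The study's methods describe loops at a coarser bin size, and the caller and threshold of the deposited 10 kb lists are not given in the sources used here. The authors deposited 1 list per group as bin pairs with whole-number contact counts, which carried no normalization and were used as deposited. The members, gene lists and tests were chosen with earlier results of these data known. Loop numbers carry exact Poisson intervals, and ratios of loop number and of contacts exact binomial intervals. For ratios of loop number the interval leaves out the added loop. PCR duplicates and other technical sources are not covered by them. The counting script was tested on simulated data. Genes named were the members, the 2 highest and 2 lowest of each gene list in IFNG against M0[CTR] (more where values tied), the 3 most similar genes per locus, and genes in the bins of named loops. Named loops were the 3 strongest per locus with IFNG and those joining member starts. Others, all stretches with bounds, and the split of loops by span were picked after their values were seen. Tables were made with pandas 2.3.3 and numpy 2.4.6 in Python 3.11.15, intervals with scipy 1.17.1 and plots with matplotlib 3.10.9. An item of 1 gene list and a sequence are not reported here.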

Additional observations from a re-analysis of the deposited data

Results flagged for a closer look

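In 2 members the difference in loop number with IFNG had opposite signs without and with IL-4 priming, and the difference between settings was not tested, as each group had 1 list. Near Tgtp1 the log2 ratio was -0.44 without priming and 0.29 with it, a difference of 0.73, and with touching bin pairs merged it was 0.54 and 1.18, of the same sign. Near Iigp1 it was -0.63 and 1.02, a difference of 1.64, and rested on 1 loop against 2 and 5 against 2. Near Irgm1 it was -0.32 and 0.02, a difference of 0.34, but the primed lists held 49 loops each, so that 0.02 is the scaling by list length alone, and with merging the ratios were 0.18 and 0.82. Ifi47 was lower in both settings (-0.98 and -0.46), but with merging the ratios were -0.21 and 0.86.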

How the results depend on the processing

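No paired analysis was possible because both replicates of a group were merged in 1 list, and for the same reason no replicate could be left out. Of 100 counts of members past a fold limit, taken over the alternatives and comparisons, 37 differed from the main count by over 1.5 times, and 13 of 240 loop ratios and 1 of 69 contact ratios lay outside the counting interval of the main value. Members that share windows move together. The fold limits tried were 2-fold and a looser one than 1.5-fold. In IFNG against M0[CTR] (0 higher, 2 lower), the count higher was 2 at a looser fold, 1 with a 50 kb window and 3 with the TSS bin alone. The count lower was 4 at a looser fold, 0 at 2-fold and with the TSS bin, and 1 with the 50 kb window, without scaling by list length, with a pseudocount of 5 and with touching bin pairs merged. For pIL-4 + IFNG over M2p[pIL-4] (3 higher, 0 lower), the count higher was 1 at 2-fold, with 50 kb, without scaling and without adjacent bins, 0 with equal list lengths and with a pseudocount of 5, and 6 with touching pairs merged. The count lower was 1 at a looser fold, with 50 kb and with equal list lengths. In M2[IL-4] against M0[CTR] (0 and 1), the count higher was 1 with 50 kb and with the TSS bin, and the count lower 5 at a looser fold, 0 with 50 kb and the TSS bin, and 3 with equal lengths and with merging. In M2p[pIL-4] against M0[CTR] (0 and 1), the count higher was 2 with the TSS bin. The count lower was 4 at a looser fold, 0 at 2-fold, with 50 kb and without scaling, 2 with equal lengths and with 20 or more contacts, and 3 with merging. In pIL-4 + IFNG against IFNG (1 and 0), the count higher was 0 with a pseudocount of 5 and the count lower 3 with the TSS bin. The cause was not tested. The Iigp1 ratio in that comparison reversed from 1.30 to -0.28 with 50 kb and with the TSS bin, where no list held a loop.

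For Ifi47 in IFNG against M0[CTR] the loop ratio stayed between -1.08 and -0.87 except with the TSS bin (-0.04) and with touching pairs merged (-0.21). In primed cells merging turned it from -0.46 to 0.86, with 8 merged patches in pIL-4 + IFNG and 4 in M2p[pIL-4]. The contact ratios of Ifi47 stayed at -0.31 without priming and between -0.41 and -0.31 with it under the window, contact and adjacent-bin alternatives. Other span limits, chosen after seeing the data, kept the sign of all 4 ratios of short and long loops in the cluster, and the short one in IFNG against M0[CTR] went from 1.37 to 0.51 at 100 kb or less. Counting intervals are wide for Iigp1, Igtp and Irgm2, with 0 to 11 loops in each list.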
